A study of Homo sapiens with 12 samples.

Results

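The transforming growth factor beta (TGF-beta) genes described here are 9 of the 19923 genes in the count data: the ligands TGFB1, TGFB2 and TGFB3, the receptors TGFBR1, TGFBR2 and TGFBR3, and the intracellular SMAD2, SMAD3 and SMAD7. They were taken by gene name, and the set was chosen by the read counts of NGP, in which SMAD3 was higher with STM2457 than with DMSO. The NGP treatment contrast therefore chose the set, and its values for the 9 genes are given as a description without a test. RNA was measured by sequencing in 12 libraries of 2 human neuroblastoma lines, SK-N-BE2 and NGP, both established in culture and both carrying an amplified MYCN gene. Both lines are labelled wild type and were grown for 6 days with either the solvent DMSO or STM2457, which blocks METTL3, the methyltransferase behind N6-methyladenosine (m6A) marks in messenger RNA. The dose was 12 µM for SK-N-BE2 and 1 µM for NGP, with 3 replicates in each of the 4 groups. Each line is a single established line, and the labels do not say whether replicates were separate cultures, so the p-values measure only the spread between these samples. Line, dose and batch changed together and cannot be told apart in any comparison of the lines. Batch here means a dated name in the headers of the count data, which differed between the lines.

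TGF-beta ligands are secreted in a latent form, held in the extracellular matrix until they are released. An active ligand brings together the type II receptor TGFBR2 and the type I receptor TGFBR1, a pair of kinases, and the co-receptor TGFBR3 (betaglycan) presents ligand to them, TGFB2 above all. TGFBR1 then phosphorylates SMAD2 and SMAD3, which enter the nucleus with SMAD4 and regulate target genes such as those for matrix proteins, while SMAD7 is induced by the pathway and blocks the receptor. Low expression of TGF-beta receptors has been described in neuroblastoma, and the pathway is known for its part in the mesenchymal cell state.

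The upstream sequences of the members that differed most between DMSO and STM2457 (SMAD3 and TGFBR2 in NGP, TGFB3 in SK-N-BE2) and of SMAD7, whose groups lay apart in opposite directions in the 2 lines, are printed first because they are the DNA in front of the RNAs whose levels are reported. Each is the 250 bases before the start site in the RefSeq promoter table (GRCh38.p14, 9 of 9 members matched), written 5′ to 3′ on the gene's own strand. Capitals mark CACGTG (the E-box bound by MYC and MYCN), GTCTG or its complement CAGAC (the short SMAD element) and GGGCGG or its complement CCGCCC (the GC box). The SMAD3 window is chr15:67065352-67065601 on the plus strand, that of TGFBR2 is chr3:30606351-30606600 on the plus strand, that of TGFB3 is chr14:75981996-75982245 on the minus strand, and that of SMAD7 is chr18:48950966-48951215 on the minus strand. None of the 4 windows overlaps an annotated exon; the TGFBR2 window lies just outside the gene, and the other windows lie inside the annotated span of their gene, which begins at an earlier start.
SMAD3: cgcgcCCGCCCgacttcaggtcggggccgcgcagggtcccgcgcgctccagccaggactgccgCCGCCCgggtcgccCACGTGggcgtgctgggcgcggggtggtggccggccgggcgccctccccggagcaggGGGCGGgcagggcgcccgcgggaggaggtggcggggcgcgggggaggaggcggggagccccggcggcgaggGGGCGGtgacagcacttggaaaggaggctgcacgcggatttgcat
TGFBR2: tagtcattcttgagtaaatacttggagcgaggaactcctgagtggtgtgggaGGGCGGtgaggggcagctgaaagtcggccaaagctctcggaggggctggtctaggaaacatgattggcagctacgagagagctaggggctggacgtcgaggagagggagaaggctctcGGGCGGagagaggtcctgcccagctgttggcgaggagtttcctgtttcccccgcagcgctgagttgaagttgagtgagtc
TGFB3: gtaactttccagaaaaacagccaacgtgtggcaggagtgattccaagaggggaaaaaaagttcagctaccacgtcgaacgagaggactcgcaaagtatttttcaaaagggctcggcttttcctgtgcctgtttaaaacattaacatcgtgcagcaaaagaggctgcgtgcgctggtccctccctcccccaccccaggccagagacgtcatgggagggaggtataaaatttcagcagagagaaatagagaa
SMAD7: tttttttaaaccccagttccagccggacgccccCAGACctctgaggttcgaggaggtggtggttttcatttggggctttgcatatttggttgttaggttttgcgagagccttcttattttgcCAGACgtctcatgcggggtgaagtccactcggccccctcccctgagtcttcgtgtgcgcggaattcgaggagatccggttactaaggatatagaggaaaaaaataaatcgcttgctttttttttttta
The SMAD3 window held 1 CACGTG, 173 bases before the start site, and 4 GC boxes, and 80.8% of its bases were G or C. CACGTG occurred in 6.345% of the 35116 promoter windows searched and GGGCGG in 42.639%, both strands counted, and the median GC content was 58%. TGFBR2 held 2 GC boxes and no match to GTCTG, and SMAD7 held GTCTG at 217 and 128 bases before its start site, a motif present in 38.003% of windows. The TGFB3 window had no match to any of the 5 motifs searched, which also included GTCTAGAC (found in 0.182% of windows) and TGACTCA (the AP-1 element, 4.203%). The TGFB2 window, not printed, also held CACGTG, where it shares 1 base with a CAGAC. These matches are descriptions of letters, and no binding was measured.

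Levels below are in CPM, the reads of a gene relative to library size scaled by edgeR's trimmed mean method, unless TPM, which also divides by gene length, is named. In a fit of all genes of one line, a gene was called changed when its adjusted p from edgeR's quasi-likelihood test (Benjamini-Hochberg) was below 0.05. SK-N-BE2 called 4 of the 9 members, 3 of them higher and 1 lower with STM2457, where 54.7% of the 14013 genes tested were called, 26.9% higher and 27.8% lower. The members' median log2 fold change there was 0.13, beside -0.02 over all genes. The 3 DMSO and 3 STM2457 libraries did not overlap for 3 of the 9 members, beside 62.2% of all genes. In NGP the same rule met 6 of the 9 (5 higher and 1 lower), beside 41.7% of 13610 genes (19.4% higher, 22.2% lower), with a median log2 fold change of 0.45 beside -0.03 over all genes. The NGP libraries did not overlap for those 6 members, beside 54.7% of all genes; since this contrast chose the members, nothing is read from these counts. The plot of CPM by library shows all 9 members.

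**Figure D1:**
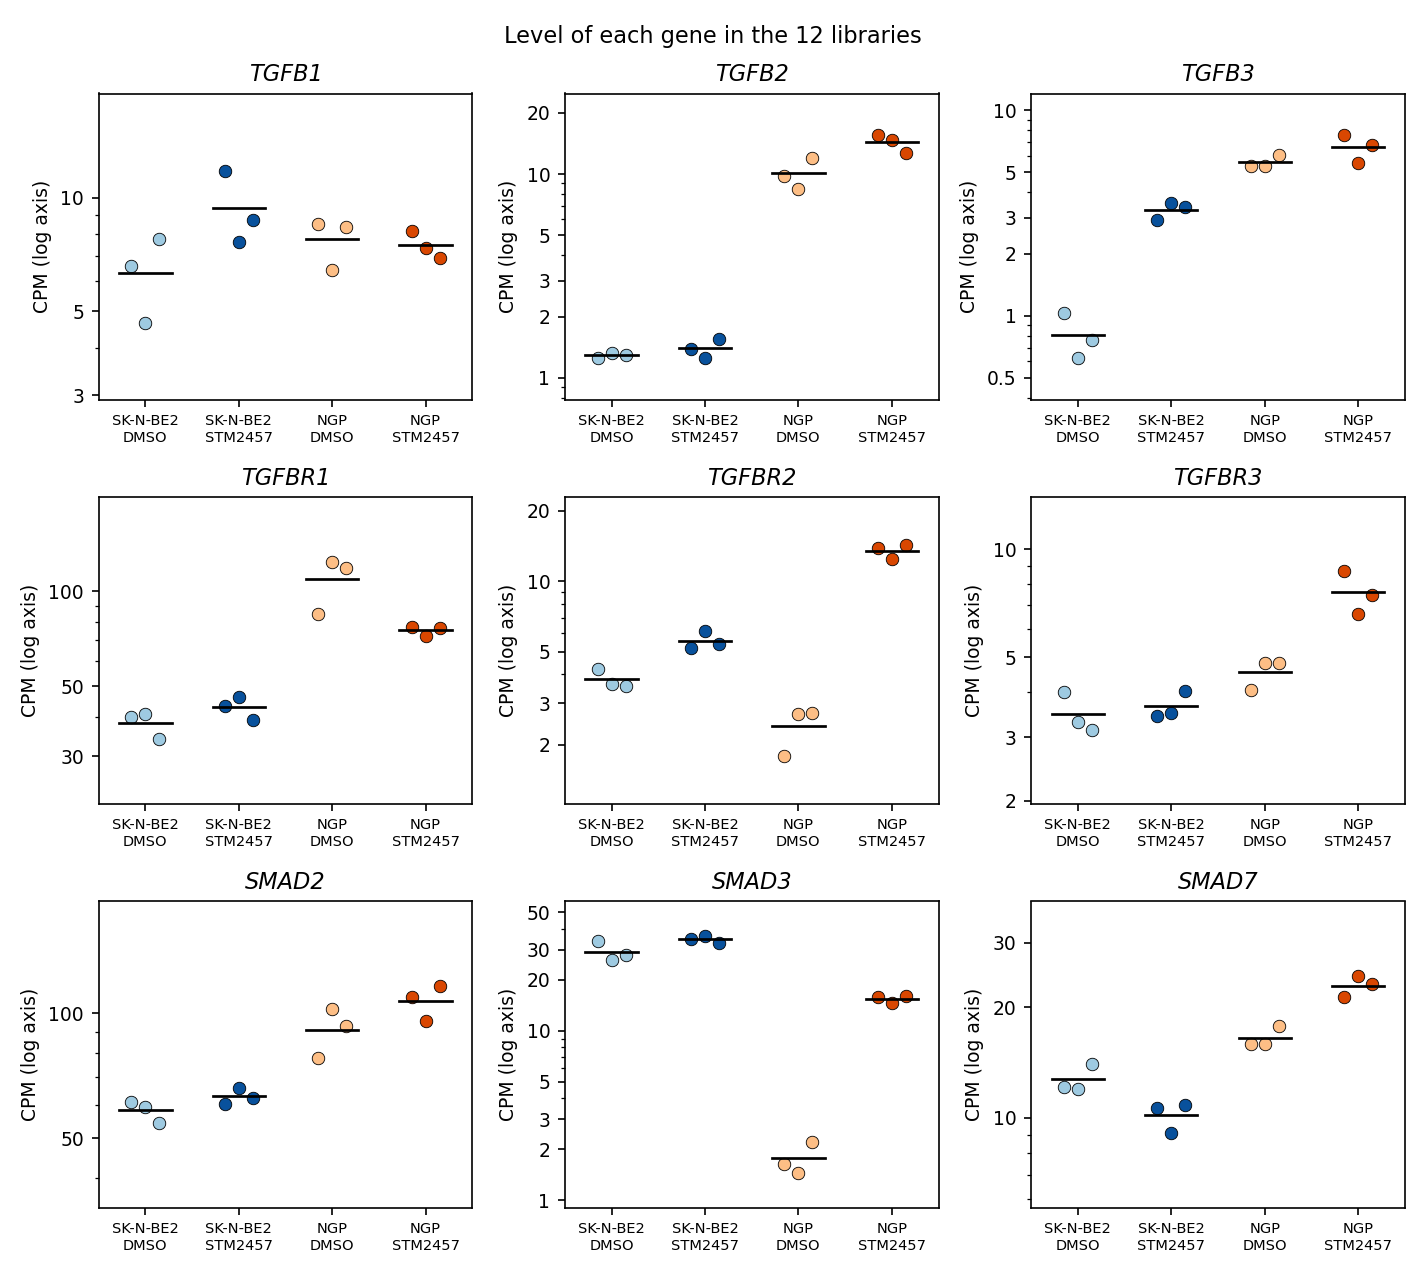
CPM (log axis) of the 9 TGF-beta genes in each library, by line and treatment; each point is 1 library and each bar the mean of 3. SMAD3 and TGFBR2 show the widest separation of the NGP groups, TGFB3 that of the SK-N-BE2 groups.

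SK-N-BE2 cells raised TGFB3, a ligand of low level in their controls (0.501 TPM, overlapping TGFB2 at 0.655 TPM). TGFB3 (ENSG00000119699.8, chr14:75958099-75982991, minus strand) stood at 1.03, 0.624 and 0.765 CPM in the SK-N-BE2 DMSO libraries and at 2.94, 3.54 and 3.37 CPM in the STM2457 libraries. Every treated library was above every control, 3.94-fold in the fit (log2 1.98, SE 0.24, edgeR adjusted p = 1.81e-05). The control level rested on 31 to 59 reads a library. In NGP the same gene lay at 5.38, 5.34 and 6.09 CPM with DMSO and at 7.56, 5.56 and 6.76 CPM with STM2457, groups that overlapped, with a log2 difference of 0.22 (SE 0.17). NGP controls were thus above SK-N-BE2 in either condition, and the log2 difference between the untreated lines was 2.79 (SE 0.21, edgeR adjusted p = 2.59e-08).

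TGFB1 (ENSG00000105329.11, chr19:41301587-41353922, minus strand), the most widely expressed ligand, had the smallest log2 difference between the untreated lines in the fit. Its SK-N-BE2 libraries stood at 6.57, 4.67 and 7.76 CPM with DMSO and at 11.8, 7.62 and 8.70 CPM with STM2457. The lowest treated library fell just inside the control range, and the fit gave 0.53 on the log2 scale (SE 0.19, edgeR adjusted p = 0.0329). That call was lost without DMSO replicate 1 (adjusted p = 0.0534), DMSO replicate 2 (0.117), STM2457 replicate 1 (0.192) or STM2457 replicate 3 (0.0501), with the log2 fold change between 0.33 and 0.69 over all omissions of 1 library. NGP held TGFB1 at 6.42 to 8.52 CPM with DMSO and 6.94 to 8.16 CPM with STM2457, and the log2 difference was -0.08 (SE 0.16). Untreated NGP and SK-N-BE2 did not pass the test for TGFB1 (log2 difference 0.29, SE 0.20, edgeR adjusted p = 0.213).

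TGFB2 (ENSG00000092969.12, chr1:218345336-218444619, plus strand) separated the lines more than the treatments. SK-N-BE2 libraries held 1.26 to 1.33 CPM with DMSO and 1.25 to 1.56 CPM with STM2457, and the difference did not pass the test (log2 0.07, SE 0.25, edgeR adjusted p = 0.821). NGP libraries held 9.75, 8.45 and 12.0 CPM with DMSO and 15.5, 14.7 and 12.7 CPM with STM2457, a log2 difference of 0.48 (SE 0.16). These NGP groups did not overlap in CPM, but they did in TPM (5.85 to 8.53 and 7.53 to 9.02). The untreated lines differed by 2.96 on the log2 scale, NGP being higher (SE 0.17, edgeR adjusted p = 1.49e-09). Antisense and same-strand transcripts overlap 11.6% and 22.7% of the TGFB2 exon length, and the counting did not use strand, so these values may include reads of the other transcripts.

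Divided by length, TGFB1 made up 83.3% ± 3.03 (SD, n = 3) of the 3 ligands' TPM in untreated SK-N-BE2 and 45.9% ± 2.83 in untreated NGP. TGFB3 made up 7.12% ± 1.48 of the ligand TPM in untreated SK-N-BE2 and 18.1% ± 4.35 after STM2457. These shares did not overlap, and the exact two-sided permutation test gave p = 0.1, the smallest that 3 against 3 libraries allow. NGP kept TGFB3 at 22.1% ± 2.01 with DMSO and 22.4% ± 2.63 with STM2457, while TGFB2 stood at 32.0% ± 2.12 and 39.3% ± 2.12 of the ligand TPM. TGFB1 was thus the leading ligand in every group except STM2457-treated NGP, where TGFB1 and TGFB2 overlapped in TPM.

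**Figure D2:**
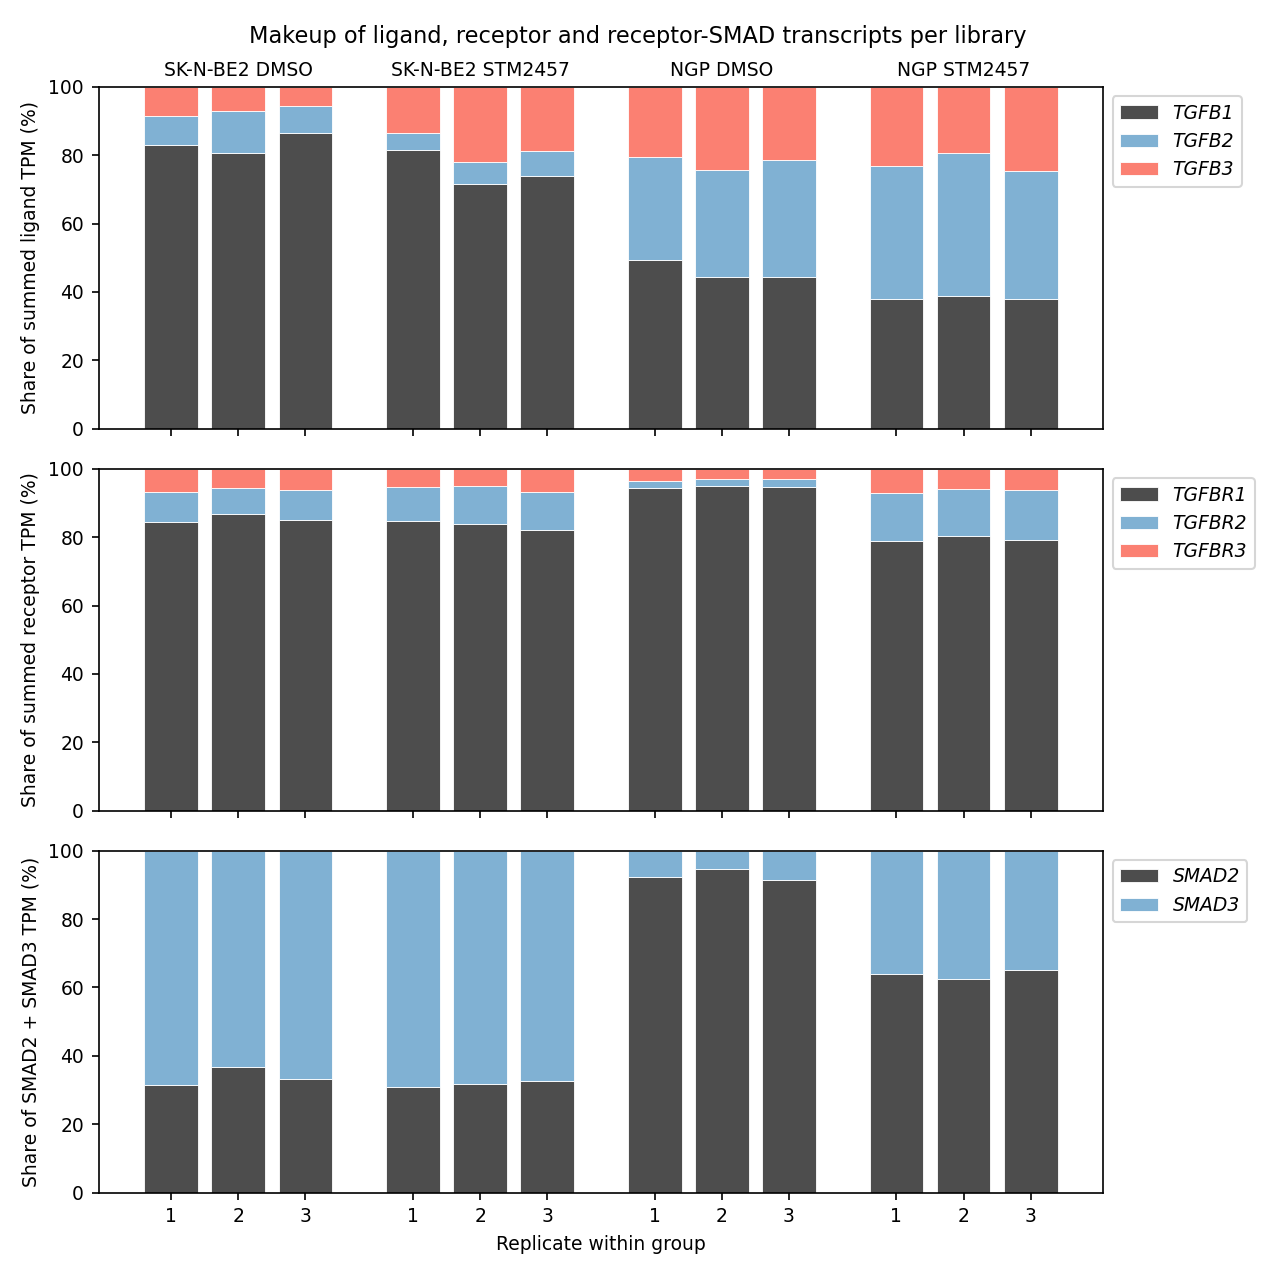
Percent of summed TPM held by each ligand, by each receptor and by SMAD3 of SMAD2 plus SMAD3, drawn as 1 stacked bar per library (replicates 1 to 3 of each of the 4 groups). SMAD3 holds a mean of 7.12% of the SMAD2 plus SMAD3 TPM in NGP with DMSO and 36.1% with STM2457, against 66.1% and 68.2% in SK-N-BE2.

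Among the receptors, TGFBR2 (ENSG00000163513.19, chr3:30606601-30694142, plus strand), the kinase that binds ligand first, averaged 1.47 TPM in untreated NGP, overlapping SMAD3 (0.785 TPM) and TGFBR3 (2.21 TPM), the other members at the low end there. It was at 1.79, 2.70 and 2.72 CPM in the NGP DMSO libraries and at 13.9, 12.4 and 14.3 CPM in the STM2457 libraries. The lowest treated library was well above the highest control, with a log2 difference of 2.46 (SE 0.19, 5.52-fold), rank 117 of 13610 genes from the highest. SK-N-BE2 also raised TGFBR2, from 4.23, 3.62 and 3.56 CPM to 5.17, 6.11 and 5.41 CPM, without overlap (log2 fold change 0.51, SE 0.15, edgeR adjusted p = 0.0128). This call was lost without STM2457 replicate 2 (0.44, adjusted p = 0.0625). In CPM the order of the groups from lowest to highest was NGP DMSO, SK-N-BE2 DMSO, SK-N-BE2 STM2457 and NGP STM2457, each apart from the next. In TPM the untreated groups overlapped (0.947 to 1.76 in NGP and 1.57 to 1.87 in SK-N-BE2). The log2 difference of untreated NGP from untreated SK-N-BE2 was -0.66 (SE 0.18, edgeR adjusted p = 0.00369).

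TGFBR1 (ENSG00000106799.14, chr9:99104038-99154192, plus strand), the signalling kinase of the pair, had the highest TPM of the 9 members in all 4 groups. That order rests on dividing SMAD2 by an annotated exon length of 36426 bases. In mean CPM, SMAD2 was above TGFBR1 in every group except NGP with DMSO. The NGP levels of TGFBR1 were 84.5, 124 and 119 CPM with DMSO and 77.0, 72.1 and 76.2 CPM with STM2457. All treated NGP libraries were below all controls, and the log2 difference was -0.56 (SE 0.15), or -0.72 without DMSO replicate 1. SK-N-BE2 libraries, at 33.9 to 40.8 CPM with DMSO and 39.0 to 46.2 CPM with STM2457, overlapped and did not pass the test (log2 0.13, SE 0.10, edgeR adjusted p = 0.291). The untreated lines differed by 1.52 on the log2 scale, NGP being higher (SE 0.13, edgeR adjusted p = 1.31e-07).

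The ratio of TGFBR1 to TGFBR2 in TPM was 47.5, 46.1 and 43.8 in the NGP DMSO libraries and 5.58, 5.83 and 5.36 in the NGP STM2457 libraries. In SK-N-BE2 it was 9.44, 11.3 and 9.57 with DMSO and 8.42, 7.60 and 7.24 with STM2457. Treated NGP thus had the lowest ratio of the 4 groups and untreated NGP the highest, with no overlap. TGFBR2 made up 2.07% ± 0.0876 (SD, n = 3) of the 3 receptors' TPM in untreated NGP and 14.2% ± 0.490 after STM2457, beside 8.49% ± 0.710 and 10.8% ± 0.669 in SK-N-BE2.

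TGFBR3 (ENSG00000069702.11, chr1:91680343-91906335, minus strand), the co-receptor, stood at 4.05, 4.81 and 4.82 CPM in NGP with DMSO and at 8.69, 6.59 and 7.47 CPM with STM2457. The groups did not overlap, and the log2 difference was 0.71 (SE 0.17). SK-N-BE2 held 3.14 to 4.003 CPM with DMSO and 3.43 to 4.04 CPM with STM2457, which did not pass the test (log2 0.03, SE 0.18, edgeR adjusted p = 0.886). Untreated NGP was higher than untreated SK-N-BE2 in every library, with a log2 difference of 0.39 that missed the threshold (SE 0.17, edgeR adjusted p = 0.0509); it passed by DESeq2 (0.0489) and without SK-N-BE2 DMSO replicate 1 (0.0412), NGP DMSO replicate 1 (0.0354) or NGP STM2457 replicate 2 (0.0498).

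SMAD3 (ENSG00000166949.17, chr15:67063763-67195169, plus strand), the signal carrier that binds DNA directly, gave the values that chose the set. NGP libraries held 1.65, 1.45 and 2.22 CPM with DMSO (74 to 114 reads a library) and 15.8, 14.6 and 16.0 CPM with STM2457. Treated and control NGP libraries were far apart, with a log2 difference of 3.10 (SE 0.19, 8.58-fold), rank 68 of 13610 genes from the highest. It was 3.05 without NGP DMSO replicate 1 and at most 3.29, without DMSO replicate 3. SK-N-BE2 held 33.9, 26.2 and 27.9 CPM with DMSO and 34.8, 36.2 and 33.02 CPM with STM2457. These groups overlapped, and the difference did not pass the test (log2 0.20, SE 0.10, edgeR adjusted p = 0.118), although it did without DMSO replicate 1 (0.32, adjusted p = 0.00979). Treated NGP libraries were below every SK-N-BE2 library. Between the untreated lines, the log2 difference was -4.05 (NGP minus SK-N-BE2, SE 0.16, given without a test).

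SMAD2 (ENSG00000175387.16, chr18:47808957-47931146, minus strand), the other receptor-activated SMAD of the branch, did not pass the test in SK-N-BE2, and its NGP groups overlapped. SK-N-BE2 libraries held 54.4 to 61.1 CPM with DMSO and 60.5 to 66.2 CPM with STM2457 (log2 0.08, SE 0.08, edgeR adjusted p = 0.465). NGP libraries held 77.9 to 102 CPM and 95.6 to 116 CPM, which overlapped (log2 difference 0.21, SE 0.13). The untreated lines differed by 0.64 on the log2 scale, NGP being higher (SE 0.11, edgeR adjusted p = 9.64e-05).

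SMAD3 made up 7.63%, 5.23% and 8.51% of the summed TPM of SMAD2 and SMAD3 in the 3 NGP DMSO libraries and 35.0% to 37.4% in the NGP STM2457 libraries. The SK-N-BE2 share was 66.1% ± 2.65 (SD, n = 3) with DMSO and 68.2% ± 0.922 with STM2457, which the exact two-sided permutation test did not separate (p = 0.3, smallest possible 0.1). The per-length share depends on SMAD2's annotated exon length of 36426 bases, of which 90.6% lies in 1 block. Without division by length, the shares were 1.93% and 12.7% in NGP and 33.4% and 35.5% in SK-N-BE2, DMSO first, so the level of the share moved but not the order of the groups.

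SMAD7 (ENSG00000101665.10, chr18:48919853-48952052, minus strand), the inhibitory SMAD, was the member whose DMSO and STM2457 libraries lay apart in opposite directions in the 2 lines. It fell in SK-N-BE2, from 12.1, 12.0 and 14.1 CPM to 10.7, 9.10 and 10.8 CPM, without overlap (log2 fold change -0.36, SE 0.12, edgeR adjusted p = 0.0208). The call was lost without DMSO replicate 3 (-0.28, adjusted p = 0.0864) or STM2457 replicate 2 (-0.28, adjusted p = 0.101). NGP libraries stood at 15.9, 15.9 and 17.8 CPM with DMSO and 21.3, 24.3 and 23.2 CPM with STM2457, a log2 difference of 0.45 (SE 0.11) with no overlap in CPM, although the 2 NGP groups overlapped in TPM (11.5 to 15.2 and 14.9 to 17.2). The untreated lines differed by 0.38 on the log2 scale, NGP being higher (SE 0.11, edgeR adjusted p = 0.00896).

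Across the untreated lines, 6 of the 8 members other than SMAD3 passed the test, 5 of them higher in NGP and 1 lower, beside 71.1% of 14731 genes (35.4% higher, 35.7% lower). The untreated libraries of the lines did not overlap in CPM for 8 of the 9 members, beside 68.9% of all genes. SMAD3, whose NGP control level entered the choice of the set, is among these 8, so nothing is read from this count. The responses to STM2457 were set side by side in 1 fit of all 12 libraries, as the SK-N-BE2 log2 response minus that of NGP; this difference shares its libraries with the 2 line contrasts and is given without a test because the NGP contrast enters it. It was -2.88 for SMAD3 (SE 0.20) and -1.94 for TGFBR2 (SE 0.24), both with the larger response in NGP. TGFB3 had the largest difference in the other direction, at 1.77 (SE 0.28), followed by TGFBR1 at 0.71 (SE 0.19). SMAD7 and TGFBR3 were at -0.79 (SE 0.16) and -0.66 (SE 0.24). The remaining members were at 0.62 (SE 0.29, TGFB1), -0.39 (SE 0.24, TGFB2) and -0.12 (SE 0.15, SMAD2). The call rule met 6 of the 9 differences, beside 30.9% of all genes (17% higher, 13.9% lower), and nothing is read from that count.

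**Figure D3:**
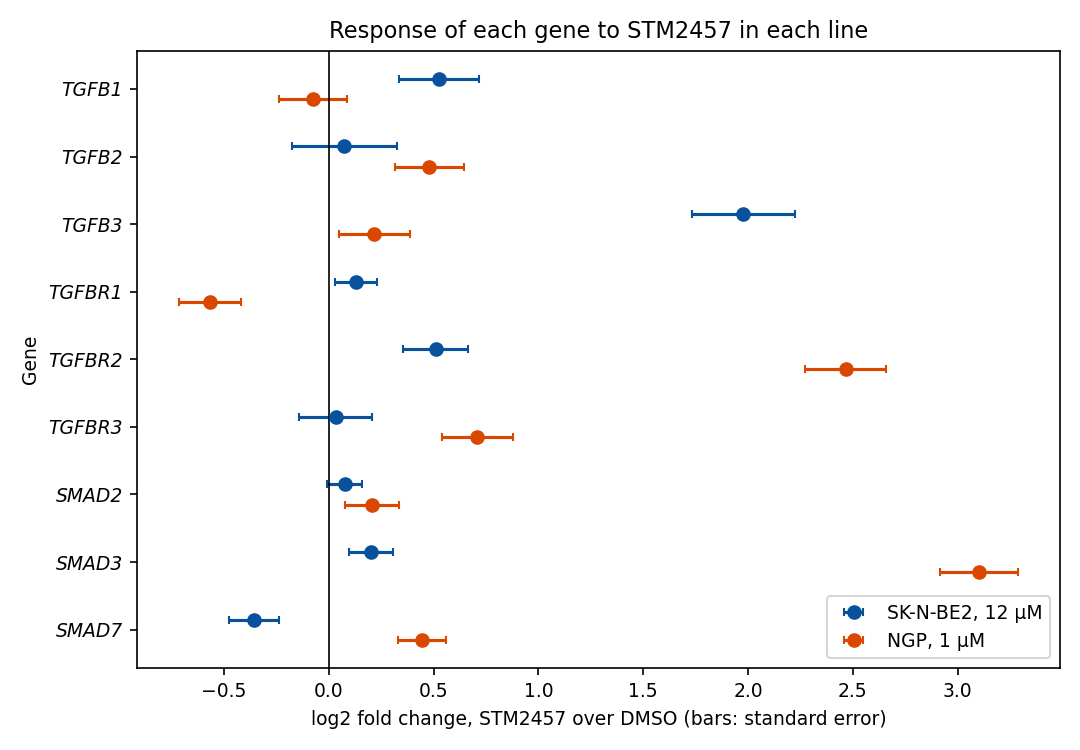
Log2 fold change (STM2457 over DMSO, with SE bars) of the 9 genes in SK-N-BE2 (12 µM) and NGP (1 µM). SMAD3 (3.10) and TGFBR2 (2.46) lead in NGP and TGFB3 (1.98) in SK-N-BE2; NGP values are descriptions.

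The genes whose profile over the 12 libraries was most like that of SMAD3 were found from log2 CPM (pseudocount 0.1) centred on each gene's own mean, over 10647 genes with at least 10 CPM in a group. The smallest root-mean-square difference was 0.23 log2 units, for RGS4, a regulator of G-protein signalling. Its mean level was 551 and 617 CPM in SK-N-BE2 (DMSO, STM2457) and 26.8 and 203 CPM in NGP. AHNAK, a very large scaffold protein, followed at 0.39, with 139 and 153 CPM in SK-N-BE2 and 4.61 and 50.4 CPM in NGP. The actin-bundling protein LCP1 (0.40) and the RNA-binding protein ZFP36L1 (0.41) came next. LCP1 had 5.69 and 11.5 CPM in SK-N-BE2 and 0.406 and 2.57 CPM in NGP. ZFP36L1 had 9.62 and 17.8 CPM in SK-N-BE2 and 0.669 and 9.07 CPM in NGP. Both thus reached 10 CPM only in SK-N-BE2 with STM2457, and both moved more in that line than SMAD3 (29.3 and 34.6 CPM). The points share libraries, lines and depth, and likeness here is a description of levels.

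METTL3 methylates adenosine mainly within the motif GGACT and its variants, so the letters GGACT were counted in the MANE Select transcript of each member (GENCODE 44). SMAD3 held 0.774 per kilobase, TGFBR2 1.10, TGFB3 0.583 and SMAD7 1.197, and the median over 19061 transcripts was 0.924. The extremes among the members were TGFB1 (1.44) and TGFB2 (0.170). Neither m6A nor RNA stability was measured in these libraries.

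The rest of the pathway was described with 6 lists holding 85 genes that are not members, assembled with earlier results of these data known. SK-N-BE2 called 48 of 75 tested (64%; 19 higher, 29 lower), and NGP called 33 of 71 (46.5%; 19 higher, 14 lower), against the percentages of all genes given above for each line. Without NGP DMSO replicate 1, NGP called 48 of 72 (66.7%), beside 57.3% of all 13776 genes tested in that fit. The named genes are those with the largest absolute log2 fold change among called genes of each list and line with at least 1 CPM and no overlap. Values below are log2 fold changes by edgeR, each called at its adjusted p unless stated.

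Among genes that store or release latent ligand, SK-N-BE2 called 8 of 11 (4 higher, 4 lower; median 0.01), with LRRC32 at -1.56 (SE 0.21), LTBP1 at -1.49 (SE 0.11) and DCN at 1.09 (SE 0.09). LRRC32 (GARP) tethers latent ligand to the cell surface, LTBP1 anchors it in the matrix, and decorin (DCN) binds free ligand. NGP called 5 of 10 (4 higher, 1 lower; median 0.47), with LRRC32 at 4.40 (SE 0.35), DCN at 3.32 (SE 0.52) and THBS1, a matrix activator of latent ligand, at 1.22 (SE 0.18). LRRC32 went from 3.17 ± 0.121 to 1.10 ± 0.143 CPM (SD, n = 3) in SK-N-BE2 and from 0.157 ± 0.0386 to 3.43 ± 0.856 CPM in NGP. DCN went from a mean of 44.6 to 97.4 CPM in SK-N-BE2 and from 0.158 to 1.62 CPM in NGP. The NGP controls held only 6 to 10 reads a library for LRRC32 and 2 to 14 for DCN.

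Receptor accessories followed. SK-N-BE2 called 3 of 8 (ENG at 0.63, SE 0.10; ACVRL1 at -0.46, SE 0.13; ZFYVE9 at 0.33, SE 0.10), and the call of ZFYVE9 was lost without STM2457 replicate 1 (adjusted p = 0.0527). NGP called 5 of 7 (3 higher, 2 lower), led by ENG at 3.14 (SE 0.24), BAMBI at 2.59 (SE 0.16) and ACVRL1 at 1.94 (SE 0.24). Endoglin (ENG) and ACVRL1 are the co-receptor and type I receptor best known from endothelium, BAMBI is a pseudoreceptor that blocks signalling, and ZFYVE9 (SARA) presents SMADs to the receptor. BAMBI rose from 3.61 ± 0.413 to 22.1 ± 3.21 CPM (SD, n = 3) in NGP, while SK-N-BE2 held 21.9 ± 3.58 and 22.9 ± 1.54 CPM.

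SMAD partners and corepressors were called in 6 of 11 in SK-N-BE2 (2 higher, 4 lower), among them SKIL at -1.28 (SE 0.09), ZEB2 at 0.54 (SE 0.09) and TGIF1 at -0.35 (SE 0.10). SKIL (SnoN) and TGIF1 are SMAD corepressors and ZEB2 is a SMAD-interacting repressor. NGP called 0 of 10 by edgeR, where ZEB2 and ZEB1 had an unadjusted p below 0.05 (2 genes) and DESeq2 called 1, ZEB2. SMAD4, the shared partner of the SMADs, stood at 40.8 ± 3.35 and 48.6 ± 3.63 CPM (SD, n = 3) in SK-N-BE2 (log2 0.22, SE 0.09, adjusted p = 0.0675) and at 57.99 ± 6.42 and 55.9 ± 2.35 CPM in NGP (-0.08, SE 0.11, adjusted p = 0.612).

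Turnover and feedback genes, mostly ubiquitin ligases and inhibitors, were called in 5 of 10 in SK-N-BE2 (4 higher, 1 lower) and in 2 of 10 in NGP (both lower). SK-N-BE2 raised NEDD4L (0.75, SE 0.09), PMEPA1 (0.41, SE 0.10) and RNF111 (0.36, SE 0.10), the last of which was lost without STM2457 replicate 2 (adjusted p = 0.0601). NEDD4L is a ligase for activated SMAD2 and SMAD3, PMEPA1 is an induced inhibitor of the SMADs, and RNF111 (Arkadia) degrades SMAD7 and SKIL. NGP lowered PMEPA1 (-0.60, SE 0.10) and the nuclear-membrane SMAD inhibitor LEMD3 (-0.54, SE 0.12).

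The activin and nodal branch, which shares SMAD2 and SMAD3, was called in 7 of 10 in SK-N-BE2 (2 higher, 5 lower) and 6 of 12 in NGP (1 higher, 5 lower). INHBE, a subunit of activin E, fell in both lines, from 37.7 ± 4.48 to 0.203 ± 0.0882 CPM (SD, n = 3) in SK-N-BE2 (-7.56, SE 0.20) and from 427 ± 23.8 to 26.4 ± 1.85 CPM in NGP (-4.04, SE 0.11). GDF11, a ligand of the branch, rose in both (0.90, SE 0.09, and 0.72, SE 0.11). FSTL3, a secreted activin antagonist, fell in SK-N-BE2 (-0.49, SE 0.14), and the activin subunit INHBC fell in NGP (-2.06, SE 0.22).

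Textbook target genes were called in 19 of 25 in SK-N-BE2, 5 higher and 14 lower, with a median log2 fold change of -0.60. In NGP 15 of 22 were called, 11 higher and 4 lower, with a median of 0.49. Smooth muscle actin ACTA2 (-2.28, SE 0.18), the cell-cycle inhibitor CDKN1A (-2.12, SE 0.10) and the transcription factor BHLHE40 (-2.02, SE 0.12) led in SK-N-BE2. The matrix genes COL3A1 (4.59, SE 0.19) and FN1 (3.89, SE 0.19) and the transcription factor SNAI2 (2.29, SE 0.22) led in NGP. CDKN1A also fell in NGP (-1.41, SE 0.10), and FN1 also rose in SK-N-BE2 (1.70, SE 0.14). ACTA2 and BHLHE40 were not called in NGP, nor was SNAI2 in SK-N-BE2. COL3A1 went from 7.95 ± 1.008 to 195 ± 38.1 CPM (SD, n = 3) in NGP and from 26.9 ± 4.68 to 59.6 ± 3.93 CPM in SK-N-BE2, where it also rose (1.11, SE 0.12). Exons of other genes overlap part of the exon length of ACTA2 (30.3% on the other strand), BHLHE40 (12.8%) and INHBE (16.4%), so their counts are uncertain in that respect.

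**Figure D4:**
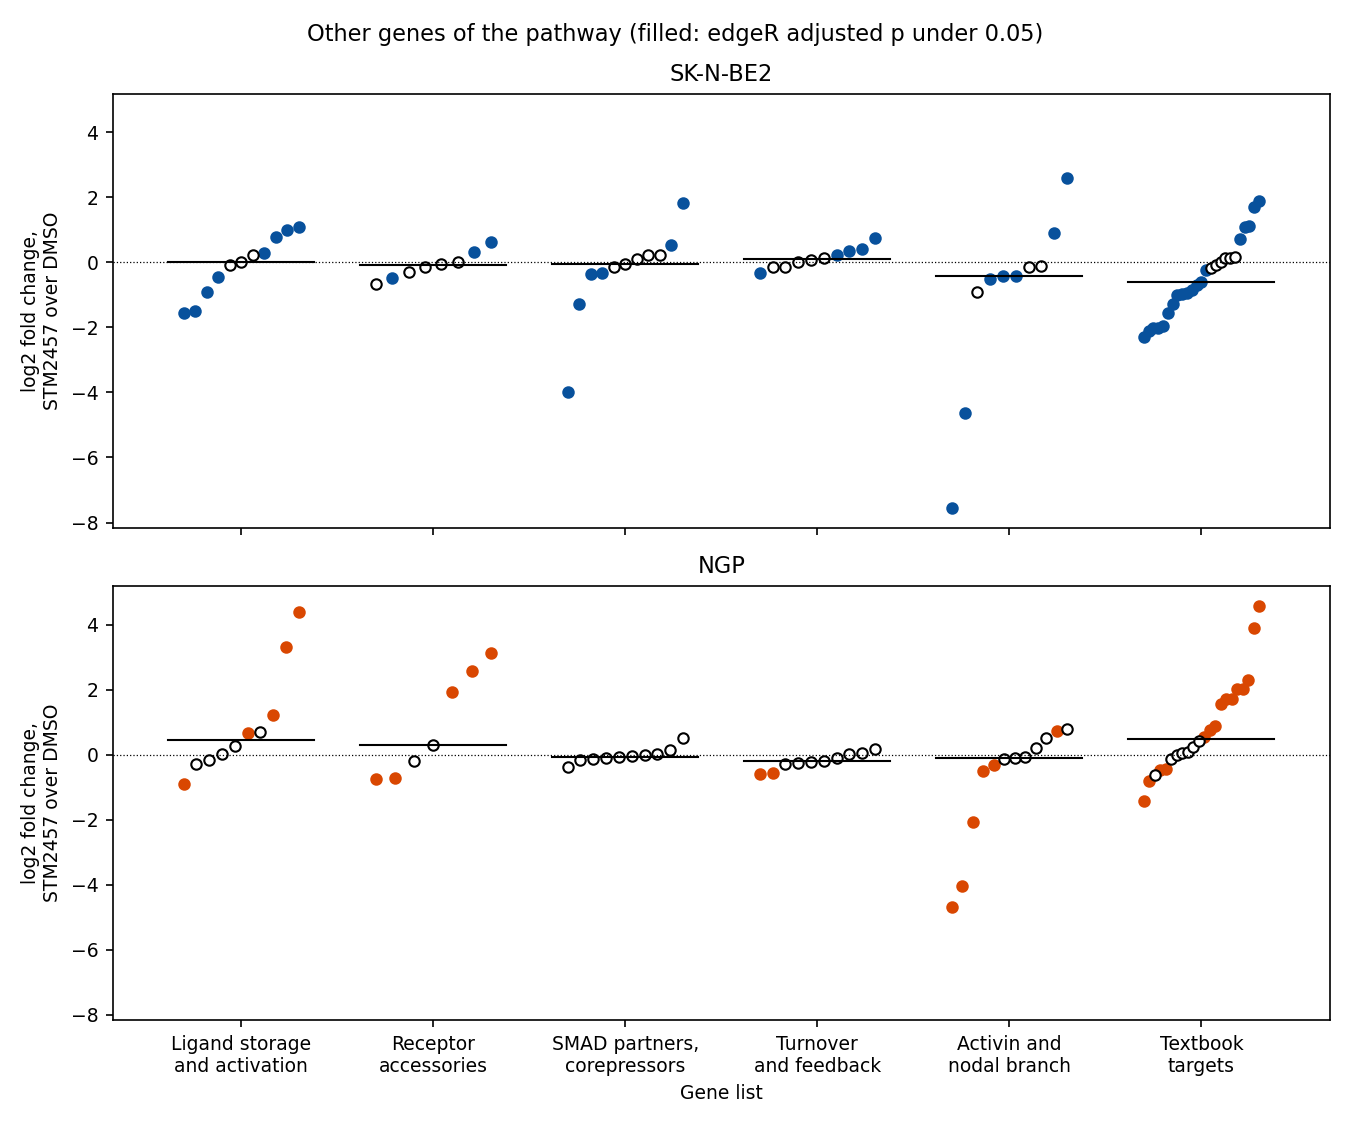
Log2 fold change (STM2457 over DMSO) of each tested gene of the 6 pathway lists, members left out, in SK-N-BE2 and NGP; filled points passed the edgeR test and horizontal lines are medians. Target genes lie mostly below 0 in SK-N-BE2 (14 of 25 called lower, beside 27.8% of all genes). In NGP they lie mostly above 0 (11 of 22 called higher, beside 19.4% of all genes).

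The SK-N-BE2 and NGP responses themselves differed by the edgeR interaction test for 19 of the 25 named pathway genes, with adjusted p from 2.19e-07 to 0.0116. These 25 were picked for a large response in 1 line, and the lists themselves were assembled with earlier results of these data known. Over all listed pathway genes the interaction was called for 39 of 78 (50%), beside 30.9% of all genes, a count not free of that choice. Among those called were the accessories ENG (-2.49, SK-N-BE2 minus NGP, SE 0.23) and BAMBI (-2.55, SE 0.21) and the targets COL3A1 (-3.47, SE 0.22), FN1 (-2.18, SE 0.25) and SNAI2 (-2.16, SE 0.25), all with the larger response in NGP.

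Markers of other cell types moved with these results. The summed level of 8 fibroblast markers was 440.5 to 473.9 CPM in SK-N-BE2 with DMSO and 601.3 to 656.9 CPM with STM2457, and 257 to 274 CPM and 515 to 580.2 CPM in NGP. In both lines 6 of them were tested. In SK-N-BE2 6 were called higher, beside 26.9% of all genes, and in NGP 5, beside 19.4% of all genes. THY1 was the largest of the 8 in SK-N-BE2 (341 and 435 CPM, DMSO first). It was not called in NGP (log2 -0.14, SE 0.14, edgeR adjusted p = 0.461). PDGFRA was the largest in NGP (132 and 194 CPM), where PDGFRB went from 29.6 to 141 CPM and COL1A1 from 29.8 to 124 CPM. COL1A2 had 0 to 6 reads in any library and FAP 0 to 2, while DCN, COL1A1 and COL1A2 are also on the storage or target lists. The 5 endothelial markers summed to 0.0782 to 0.272 CPM in untreated NGP and 2.62 to 3.80 CPM after STM2457, with PECAM1 at 0 reads in all NGP libraries, and to 16.9 to 22.5 CPM and 11.9 to 14.2 CPM in SK-N-BE2. Leukocyte markers stayed at or below 2.25 CPM in sum. The part of these markers in the results was not tested, and in bulk RNA a change in the share of cells and a change in RNA per cell cannot be told apart.

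The 12 libraries held 47242379 to 58159937 counted reads. The 9 adrenergic neuroblastoma markers summed to between 5693 and 6930 CPM in every library, with 8 of 9 above 1 CPM in each group; TH, the first enzyme of catecholamine synthesis, was near 0 in NGP (means of 0.512 and 0.857 CPM, DMSO first). NGP DMSO replicate 1 stood apart from the other 2 NGP controls. Its chi-square per degree of freedom was 94.8 and 62.0 against them, beside 11.2 between those 2, and the coefficient of biological variation in the NGP fit was 0.155 with it and 0.0944 without it. Without this library the NGP rule again met 6 of the 9 members, while it met 3 without STM2457 replicate 1 or STM2457 replicate 3.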

How the data were processed

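RNA from 12 libraries was sequenced after poly(A) selection and SMART cDNA synthesis, per the labels' protocols. The authors deposited 1 file of raw read counts per library; per the file headers these came from featureCounts 2.0.5 on paired reads, counting single reads over exons by gene name without strand, multi-mapping reads excluded, with GENCODE 33 protein-coding genes on GRCh38. The submitters' processing notes list FastQC 0.11.5, Trimmomatic 0.36, HISAT2 2.1.0 and Subread 1.5.3, a version other than that in the headers. Mates were counted singly: 72.1% to 75.4% of counts from 1 to 20 were even, beside 49.3% to 51.0% of counts above 1000. Precision is therefore lower than the read numbers imply, and intervals from counts were not used.

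From the counts, edgeR 4.0.16 in R 4.3.3 (filterByExpr with a minimum count of 10, trimmed-mean scaling, quasi-likelihood test, Benjamini-Hochberg over all genes tested, threshold 0.05) was fitted to each line's 6 libraries, and to all 12 for the comparisons between lines. CPM used the scaling of the fit of all 12 libraries; TPM used the gene lengths in the files. Scripts were tested on simulated data. Replicates differed by more than sampling noise, so none was merged. The lowest chi-square per degree of freedom was 2.80, between NGP STM2457 replicates 1 and 3, beside at least 8.43 for every other pair. The labels do not say whether that closest pair came from separate cultures. Alternatives were DESeq2 1.42.0, its size factors in edgeR, other low-count filters, halved counts, a joint fit, a replicate block and leaving out each library. Genes were named by rule: all 9 members and SMAD4; per list and line, up to 3 called genes with the largest absolute log2 fold change, at least 1 CPM and no overlap of libraries; and the 4 genes most like SMAD3. The members, lists and rules were chosen with earlier results of these data known. Some single genes of the lists are not reported here.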

Additional observations from a re-analysis of the deposited data

Results flagged for a closer look

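For SMAD7, every SK-N-BE2 library with STM2457 was below every control and every NGP library above every control in CPM; the response in SK-N-BE2 minus that in NGP was -0.79 on the log2 scale, and this difference was not tested.

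The following pathway genes outside the set had responses that differed between the lines by the edgeR interaction test (SK-N-BE2 minus NGP, log2, adjusted p up to 0.0116). Among genes for ligand storage the difference was -5.95 for LRRC32, -2.14 for LTBP1 and -2.22 for DCN. Receptor accessories gave -2.49 for ENG, -2.40 for ACVRL1, -2.55 for BAMBI and 1.04 for ZFYVE9. Among SMAD corepressors and turnover genes it was -1.25 for SKIL, 1.01 for NEDD4L, 1.02 for PMEPA1 and 0.62 for LEMD3. The activin branch gave -3.51 for INHBE and -1.01 for FSTL3. Targets gave -2.33 for ACTA2, -0.69 for CDKN1A, -2.45 for BHLHE40, -3.47 for COL3A1, -2.18 for FN1 and -2.16 for SNAI2. Line, dose and batch cannot be told apart in these differences.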

How the results depend on the processing

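No member or named pathway gene that met the call rule changed direction under the alternatives run, which did not include SMAD4 or the genes most like SMAD3. In SK-N-BE2, TGFB2 (-0.01 to 0.15) and TGFBR3 (-0.04 to 0.14), neither called, crossed 0. Leaving out 1 library moved the members called from 4 to between 2 and 4 in SK-N-BE2 (2 without STM2457 replicate 2) and from 6 to between 3 and 6 in NGP (3 without STM2457 replicate 1 or replicate 3); the cause was not tested. The SMAD3 share of SMAD2 plus SMAD3 without division by length was, DMSO first, 33.4% then 35.5% for SK-N-BE2 and 1.93% then 12.7% for NGP, a shift that the removal of gene length makes by construction. TGFB3 in SK-N-BE2 passed in each alternative, with the adjusted p at most 0.000252. With the replicate number as a block, the SK-N-BE2 fit called 4 members and the NGP fit 5; same-numbered libraries did not deviate together (SK-N-BE2 correlations were -0.145, 0.131 and 0.0221, those of NGP 0.00422, -0.197 and 0.0865), so the numbers do not pair the samples. Depth limits TGFB3 in SK-N-BE2 controls (31 to 59 reads) and SMAD3 in NGP controls (74 to 114 reads). It also limits LRRC32 (6 to 10 reads) and DCN (2 to 14 reads) in NGP controls.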

Other observations

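CCN2, a matricellular growth factor and classical target chosen after its values were seen, fell from 3.54 ± 0.575 to 1.83 ± 0.339 CPM (SD, n = 3) in SK-N-BE2 (-0.98 on the log2 scale, SE 0.21, edgeR adjusted p = 0.00163), and NGP held 0 to 4 reads a library.

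The type I collagen chains, likewise chosen after their values were seen, were unequal. COL1A1 rose from 29.8 ± 3.45 to 124 ± 4.84 CPM in NGP (SD, n = 3; 2.04 on the log2 scale, SE 0.11, edgeR adjusted p = 9.71e-06) and from 8.41 ± 1.55 to 18.4 ± 0.435 CPM in SK-N-BE2 (1.09 on the log2 scale, SE 0.13, edgeR adjusted p = 1.37e-05). COL1A2, its partner chain, had between 0 and 6 reads in every library of both lines.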
